A study of Sus scrofa with 14 samples.

Results

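The genes described here break down fat and the carbon skeleton of valine: ABHD5, ACADL, ACADM, ACAD8 and ABCD3. They are 5 of the 3020 pig genes that could be named from the accessions on the array, and 16 probes of the array stand for them. A probe belonged to a member when its RefSeq accession, a public identifier of a transcript, was that of the gene. ABHD5 is also named in a supplementary table of the study, which lists probes that differed more than 1.5-fold in at least 3 of the 7 pigs. The 5 genes were picked with results of these arrays already known, so their ratios are described below and were not tested.

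The jejunal mucosa of 7 pigs was scraped off and its gene expression read with 1-colour arrays, on which the RNA of 1 sample is labelled with 1 dye and the brightness of each spot is read. In this small intestinal segment perfusion (SISP) model, segments of the jejunum of a living, anaesthetised male piglet of about 5 weeks and 8.2 kg, located between 31 and 58% along the length of the small intestine, were perfused for 6 h. All segments share the tranquilliser azaperone and anaesthesia with sevoflurane and nitrous oxide. Control segments received digest fluid prepared from saline (Sd). The other segment of pigs 1, 2 and 4 received digested yellow onion (YOd), and that of pigs 5, 6, 7 and 8 digested white onion (WOd).

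Each pig thus gave 1 Sd and 1 onion segment, with 1 array for each of the 14 segments, and onion and Sd were compared within a pig. The onion digests were diluted in a peptone solution and the Sd more strongly in saline, so the onion, the diluent and the strength of the digest fluid cannot be told apart. Yellow and white onion were given to different pigs, so a difference between the onions is also a difference between pigs. A scraping holds many cell types, and fewer cells of a type and less RNA per cell cannot be told apart.

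Fat stored in cells as triglyceride is cut by lipases, and ABHD5 is the protein that switches on the first of these, adipose triglyceride lipase, encoded by PNPLA2. The fatty acids set free are bound to coenzyme A and shortened stepwise by beta-oxidation. ACADL and ACADM are mitochondrial acyl-CoA dehydrogenases that carry out the first step of a round of beta-oxidation, on long-chain and medium-chain acyl-CoA. ACAD8 belongs to the same enzyme family but acts on isobutyryl-CoA, an intermediate of valine breakdown, and ABCD3 is a transporter in the membrane of the peroxisome, where very long and branched fatty acids are shortened. In the small intestine the absorptive enterocytes take up dietary fat, store part of it briefly as droplets and can oxidise fatty acids.

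On the 14 arrays between 50.05 and 70.69% of the 43603 probes were well above background. Of 10 enterocyte markers 7 had a named probe, among them FABP2, APOA4 and the glucose transporter SLC5A1, and all of these were above the floor, the lowest value allowed, on every array, so absorptive cells of the labelled tissue were present in each sample. Of these 7, 6 were saturated on all 14 arrays, so they show presence but no difference between segments. The 14 arrays came from 5 slides, and the onion and Sd arrays of pigs 2 and 7 lay on different slides, so values without these pigs are given where they matter. All 16 probes of the 5 genes were well above background and none was saturated on any of the 14 arrays. Levels are log2 values relative to the 75th percentile of each array, so 0 is the level of that percentile and 1 unit is a doubling. Because probes differ in how brightly they bind, the levels of different genes were not set against each other.

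ABHD5, the coactivator of triglyceride breakdown, was higher in the onion segment than in the Sd segment of 6 of the 7 pigs, on average 1.41-fold. In pig 1 its level was 3.43 in the Sd segment and 4.41 in the YOd segment. In pig 2 the levels were 2.65 and 2.91, and in pig 4 they were 2.73 and 3.78. The Sd levels of these 3 pigs and their YOd levels overlapped, since the YOd segment of pig 2 stood below the Sd segment of pig 1. Among the pigs given white onion, the Sd levels of pigs 5, 6, 7 and 8 were 2.83, 2.13, 2.18 and 3.23. Their WOd levels were 3.16, 3.03, 2.45 and 2.91, within the span of the Sd levels, and pig 8 alone had a lower level with onion.

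**Figure D1:**
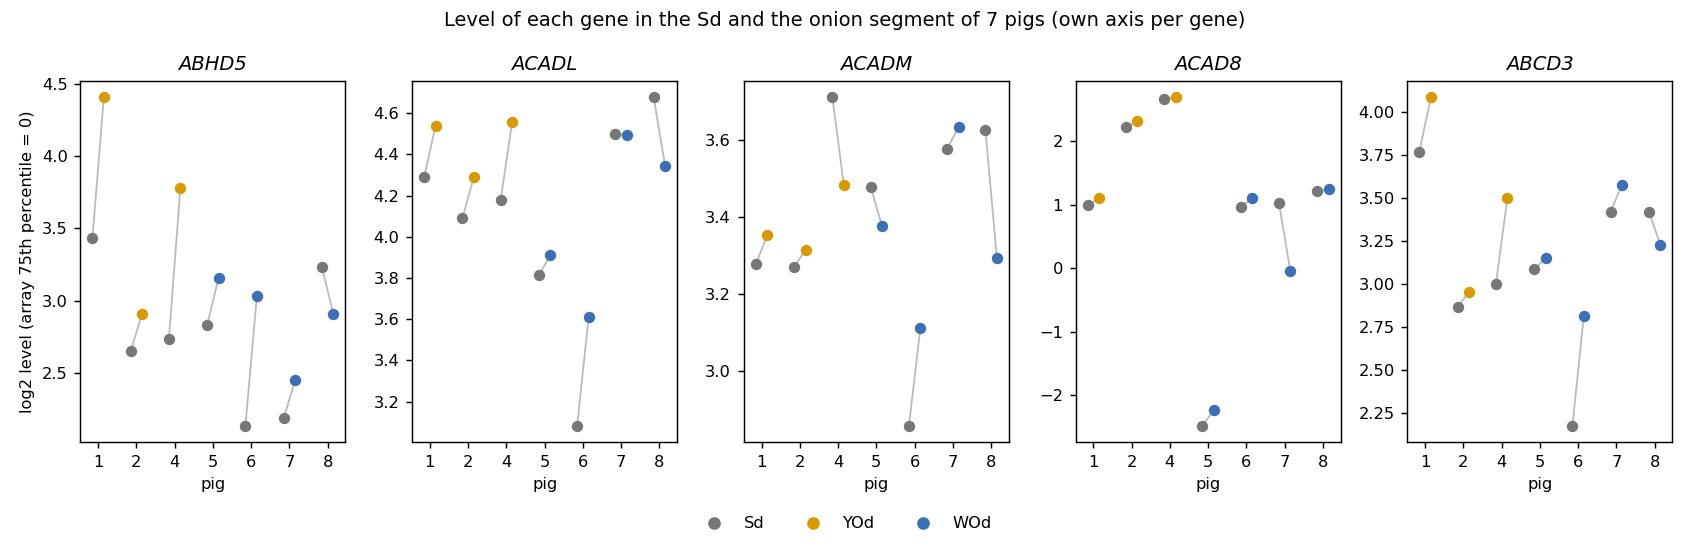
Level of the 5 genes (y axis, log2, with 0 at the 75th percentile of the array and an own axis per gene) in the Sd segment (grey) and the onion segment (yellow for YOd, blue for WOd) of each of the 7 pigs (x axis), joined by a line. ABHD5 was higher with onion in 6 of 7 pigs, and ACAD8 was low in both segments of pig 5.

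The log2 ratio of ABHD5, onion over Sd, was 0.98, 0.26 and 1.04 in pigs 1, 2 and 4, a mean of 0.76 ± 0.43 (SD, n = 3). In pigs 5, 6, 7 and 8 it was 0.33, 0.90, 0.26 and -0.32, a mean of 0.29 ± 0.50 (SD, n = 4). Over the 7 pigs the mean was 0.49 ± 0.50 (SD, n = 7), so the spread between pigs was as large as the mean. Expressed as a fold, pigs 1, 4 and 6 reached 1.97, 2.06 and 1.87, and these were the 3 pigs past the 1.5-fold limit of the study's table. The next pig, pig 5, was at 1.26-fold, and no member other than ABHD5 passed that limit in more than 1 pig. A ratio past 1.5-fold in at least 3 of 7 pigs, in either direction, was found for 12.5% of the 2453 genes compared, and this limit is the one by which the study's table was made.

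With the scaling used, the median ratio over all genes was 0.19, 0.03 and 0.20 in pigs 1, 2 and 4 and 0.05, 0.09, 0.09 and -0.07 in pigs 5, 6, 7 and 8. This balance depended on the scaling, and the median with yellow onion was 0.14 here but 0.05 with quantile normalization and 0.06 with the authors' log2 values. Set against the other genes of the same pig, the ratio of ABHD5 ranked at percentiles 96.9, 88.9 and 97.1 in pigs 1, 2 and 4. With white onion the ranks were 76.1, 98.0, 68.3 and 21.8 in pigs 5, 6, 7 and 8. Its mean with white onion was 0.09 without pig 6 and 0.50 without pig 8. ABHD5 was thus near the top of the genes in pigs 1, 4 and 6, while in pig 8 it lay in the lower part. Without pigs 2 and 7, whose arrays lay on different slides, the mean of the 5 remaining pigs was 0.59 ± 0.58 (SD, n = 5).

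With the probe of highest mean, ACADL, which acts on long-chain acyl-CoA, was higher with onion in 5 of the 7 pigs and in all 3 given yellow onion. Its Sd levels in pigs 1, 2 and 4 were 4.29, 4.09 and 4.18, and the YOd levels were 4.54, 4.29 and 4.56. The YOd levels all lay at or above the highest Sd level of these pigs. In pigs 5, 6, 7 and 8 the Sd levels were 3.81, 3.08, 4.50 and 4.68, and the WOd levels were 3.91, 3.61, 4.50 and 4.34. Here the groups overlapped, with pig 6 the lowest in both segments.

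As a log2 ratio, ACADL stood at 0.25, 0.20 and 0.38 with yellow onion, a mean of 0.28 ± 0.09 (SD, n = 3). With white onion it was 0.10, 0.53, -0.01 and -0.33 in pigs 5, 6, 7 and 8, a mean of 0.07 ± 0.35 (SD, n = 4). The white onion pigs were on both sides of 0, and no pig reached 1.5-fold. Relative to the other genes the mean over the 7 pigs, 0.16 ± 0.28 (SD, n = 7), ranked at percentile 71.8.

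As read by its probe of highest mean, ACADM, the medium-chain dehydrogenase, differed little between segments and varied little between pigs. The Sd levels were 3.28, 3.27 and 3.71 in pigs 1, 2 and 4 and the YOd levels 3.35, 3.32 and 3.48. In pigs 5, 6, 7 and 8 they were 3.48, 2.86, 3.58 and 3.62 with Sd, against 3.38, 3.11, 3.63 and 3.29 with WOd. The groups overlapped, and pig 6 was again the lowest in both segments. The mean log2 ratio was -0.04 ± 0.17 (SD, n = 3) with yellow onion and -0.03 ± 0.25 (SD, n = 4) with white onion, and 4 of 7 pigs were above 0. With the 3 other scalings tried, 3 of 7 pigs were above 0. The SD of ACADM over the 7 Sd arrays was 0.29, at percentile 23.9 of all genes, whose median SD was 0.39.

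Both dehydrogenases are represented by several probes, 6 for ACADL and 7 for ACADM, and the values above are those of the probe with the highest mean. For both genes that probe also gave the highest mean ratio of all its probes, with yellow onion, with white onion and over the 7 pigs. In pigs 1, 4 and 6 all 6 ACADL probes were above 0, with ratios from 0.004 to 0.25, from 0.14 to 0.59 and from 0.38 to 0.67. In pig 8 every ACADL probe was below 0, from -0.51 to -0.33. Pig 7 split them, from -1.03 to 0.05. So did pig 2, with 3 of 6 above 0, from -0.16 to 0.20, and pig 5, with 4 of 6 above 0, from -0.03 to 0.45. The mean over the 7 pigs went from -0.04 to 0.16 across the 6 probes, so the direction of ACADL over all pigs depended on the probe. Its mean with yellow onion was above 0 for all 6, from 0.06 to 0.28, against a median of 0.14 for all genes.

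For ACADM all 7 probes were below 0 in pig 4, with ratios from -0.68 to -0.23, and all 7 were below 0 in pig 8, from -0.42 to -0.24. The highest-mean probe gave the ratio nearest 0 in pig 4. In pig 7 the ACADM probes ranged from -1.64 to 0.06. Over the 7 pigs each of the 7 probes had a mean below 0, from -0.34 to -0.03. The lowest ACADM value with white onion, -0.43, came from a probe other than the one chosen, for which the mean was -0.03.

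**Figure D2:**
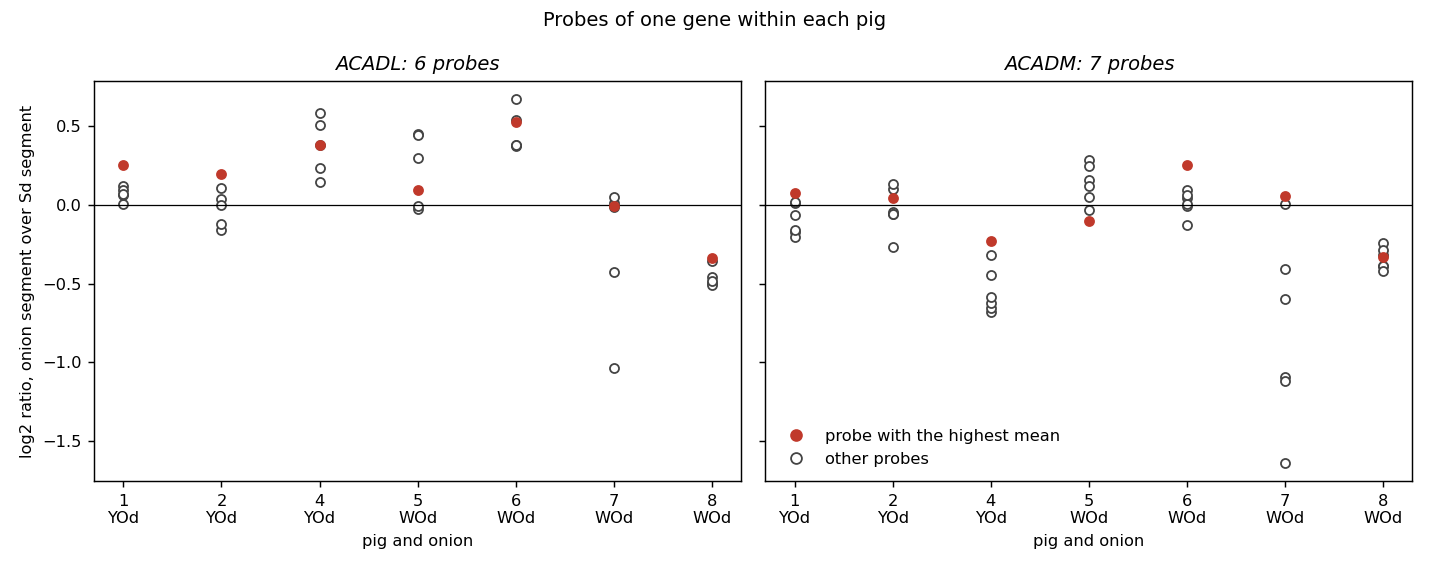
Log2 ratio of the onion over the Sd segment (y axis) in each pig (x axis, with its onion) for the 6 probes of ACADL and the 7 probes of ACADM; filled points are the probe with the highest mean. The probes lay close together in pig 8 and far apart in pig 7, where ACADM ran from -1.64 to 0.06.

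Pig 7 was also where probes of other genes differed most. The SD between probes of 1 gene had a median of 0.27 in pig 7 over 549 genes with at least 3 probes, and of 0.11 to 0.19 in the other pigs. ACADL and ACADM had SDs of 0.43 and 0.63 in pig 7, at percentiles 73.4 and 82.7 of these genes. The WOd array of pig 7 had 54.92% of its probes well above background and 282 outlier spots, and its Sd array 63.28% and 39 outlier spots. The part of these array properties in the split of the probes was not tested.

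ACAD8, the dehydrogenase of valine breakdown, differed more between pigs than between the segments of a pig, with an SD of 1.66 over the 7 Sd levels and of 0.46 over the 7 ratios. The Sd levels of pigs 1, 2 and 4 were 0.99, 2.22 and 2.67, and the YOd levels were 1.10, 2.32 and 2.69. In pigs 5, 6, 7 and 8 the Sd levels were -2.48, 0.96, 1.03 and 1.22, and the WOd levels -2.24, 1.10, -0.05 and 1.24. Pig 5 was the lowest by a wide margin in both of its segments, which were hybridised on separate arrays of 1 slide, and its single probe was well above background on both. The Sd levels spanned 35.6-fold and their SD ranked at percentile 99.5 of all genes. Without pig 5 the 6 Sd levels ran from 0.96 to 2.67, which is 3.26-fold, and their SD of 0.74 ranked at percentile 88.0.

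The log2 ratio of ACAD8 was 0.12, 0.10 and 0.02 in pigs 1, 2 and 4, a mean of 0.08 ± 0.05 (SD, n = 3). In pigs 5, 6, 7 and 8 it was 0.24, 0.14, -1.08 and 0.03, a mean of -0.17 ± 0.62 (SD, n = 4). The mean over the 7 pigs was -0.06, and without pig 7 it was 0.11, so 1 pig set its sign. ACAD8 is counted as higher in 6 of 7 pigs here but in 5 of 7 with the 3 other scalings, since most of its ratios are near 0. As only 1 probe stands for ACAD8, it cannot be seen whether probes along the gene split in pig 7 as those of ACADL and ACADM did.

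ABCD3, the peroxisomal transporter, was higher with onion in 6 of the 7 pigs, by less than ABHD5. Its Sd levels were 3.77, 2.87 and 2.996 in pigs 1, 2 and 4, and the YOd levels were 4.08, 2.95 and 3.50. In pigs 5, 6, 7 and 8 the Sd levels were 3.08, 2.17, 3.42 and 3.42, and the WOd levels 3.15, 2.81, 3.58 and 3.23. Groups overlapped for both onions, and the Sd segment of pig 6 was the lowest of all. The log2 ratios were 0.32, 0.09 and 0.50 with yellow onion, a mean of 0.30 ± 0.21 (SD, n = 3). With white onion they were 0.07, 0.64, 0.16 and -0.19, a mean of 0.17 ± 0.35 (SD, n = 4). Pig 6 alone passed 1.5-fold, at 1.56-fold. The mean with white onion was 0.01 without pig 6 and 0.29 without pig 8.

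Across the 5 genes, 4 were above 0 in all 3 pigs given yellow onion, as were 33.3% of the 2453 genes. For ACADL this holds for the chosen probe, and in pig 2 only 3 of its 6 probes were above 0. At least 6 of 7 pigs were above 0 for 3 of the 5 genes, ABHD5, ACAD8 and ABCD3, against 14.5% of all genes. ABCD3 was above 0 in 5 of 7 pigs, and in 2 of 4 given white onion, with normexp background correction. ACAD8 was above 0 in 5 of 7 with the 3 other scalings. ABHD5, ACAD8 and ABCD3 were above 0 in at least 3 of the 4 pigs given white onion, as were 36.3% of all genes. As the members were picked with results of these arrays known, the shares of all genes are no test of them. None of the 5 had the same sign in all 7 pigs, which 1.79% of all genes had. The pig that broke the sign was pig 8 for ABHD5 and ABCD3 and pig 7 for ACAD8.

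**Figure D3:**
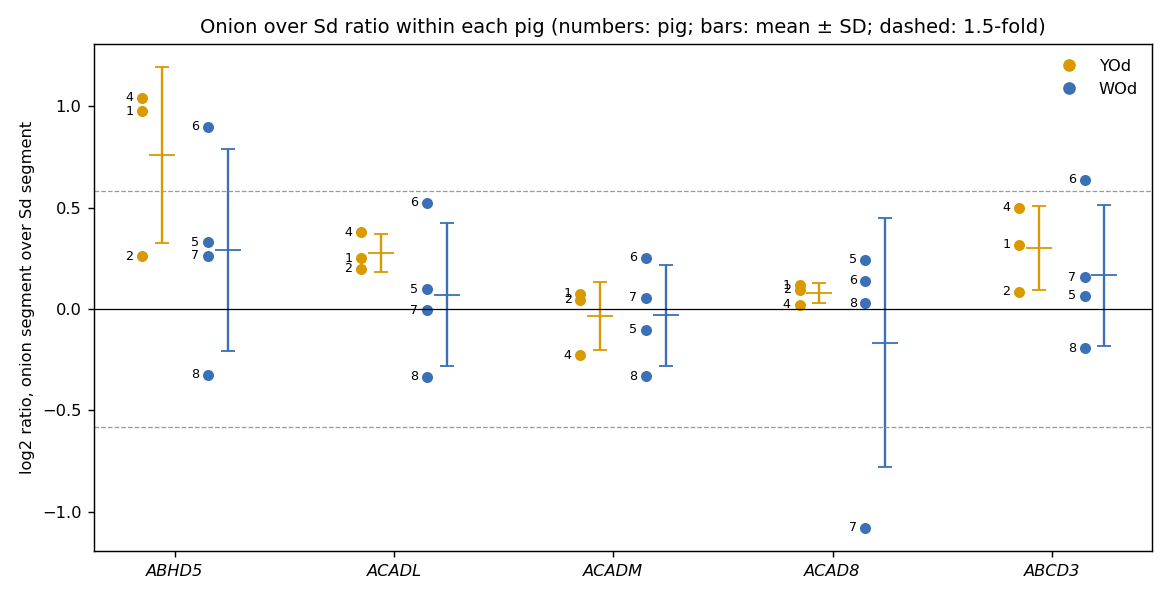
Log2 ratio of the onion over the Sd segment of the same pig (y axis) for the 5 genes (x axis), with points for pigs (numbered), yellow for YOd (n = 3) and blue for WOd (n = 4), bars for the mean ± SD and dashed lines at 1.5-fold. ABHD5 passed 1.5-fold in pigs 1, 4 and 6, and pig 7 stood apart for ACAD8 at -1.08.

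Among the pigs, pig 6 had the highest ratio of ACADL, ACADM and ABCD3, at 0.53, 0.25 and 0.64, and pig 8 the lowest ratio of ABHD5, ACADL, ACADM and ABCD3, at -0.32, -0.33, -0.33 and -0.19. The Sd array of pig 8 had the lowest share of probes well above background, 50.05%, and the most outlier spots, 462. Whether that bears on the ratios of pig 8 was not tested. The ratios of ABHD5 and ABCD3 had Pearson's r = 0.92 over the 7 pigs and the same sign in all of them, those of ACADL and ABCD3 had r = 0.93, and those of ABHD5 and ACADL r = 0.90. These values describe 7 pigs, and the ratios of a pig share 2 arrays and their scaling. Over the levels of the 14 arrays, r was 0.66 for ABHD5 and ABCD3, 0.82 for ACADL and ABCD3 and 0.74 for ACADL and ACADM, and between -0.02 and 0.29 for ACAD8 with any of the other 4.

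The genes whose levels were most like those of each member over the 14 arrays were named by the highest Pearson's r. For ABHD5 they were the methyltransferase gene SMYD3 (r = 0.96), AHCY, encoding adenosylhomocysteinase and saturated on 3 arrays (r = 0.93), and BEX1 (r = 0.92). For ACADL they were GOT1, the cytosolic aspartate aminotransferase (r = 0.93), PHYH, a peroxisomal enzyme of branched fatty acids (r = 0.90), and OTC of the urea cycle (r = 0.87). ABCD3 was followed most closely by SPRYD7 (r = 0.96), GLUD1, the mitochondrial glutamate dehydrogenase (r = 0.96), and the tight junction gene OCLN (r = 0.95). ACADM had lower values, with HABP2 at r = 0.87, NME1 at 0.83 and DERL1 at 0.82. These are the highest of the 2399 genes compared, and the arrays share pigs, slides and scaling.

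ACAD8 was most like MRPL16, a protein of the mitochondrial ribosome (r = 0.90), PDCD4 (r = 0.86) and LAMP1 (r = 0.84). Pig 5 was low in these genes as well. MRPL16 stood at -1.95 and -1.68 in the Sd and WOd segment of pig 5, while its lowest and highest level in the other pigs were -1.65 and 2.63. Over the 12 arrays without pig 5 the values of r were 0.84 for MRPL16, 0.85 for PDCD4 and 0.66 for LAMP1.

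Other genes of these pathways were tested with limma, a linear model fitted over all genes, with the pig as a block. A gene was called at an unadjusted p below 0.05 and a fold above 1.5. Of the 115 genes of 5 pathway lists, 58 could be tested. With yellow onion 5 of the 58 were called, 4 higher and 1 lower, against 4.63% of all 2464 genes tested, 3.65% higher and 0.974% lower. With white onion 1 of 58 was called, as lower, against 1.18% of 2467 genes, 0.77% higher and 0.405% lower. Over the 7 pigs it was 1 of 58, as higher, against 1.22% of 2453, 0.938% higher and 0.285% lower. No gene passed the Benjamini-Hochberg adjustment of limma's p at 0.05 in any of these fits, while 276, 68 and 168 genes had an unadjusted p below 0.05 with yellow onion, with white onion and over the 7 pigs. The tested list genes FABP2 and MUT were saturated on all 14 arrays and could show no difference, and FABP1 was saturated on 13. The lists partly hold genes that the study's table had picked on these same arrays, so their counts are no independent evidence of a direction.

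The enzymes of mitochondrial beta-oxidation nearest to ACADL and ACADM gave no call with either onion or over the 7 pigs, with 17 of 34 genes tested. With yellow onion 13 of the 17 were above 0 and their median log2 change was 0.22, against 0.14 for all genes, and with white onion it was 0.08 against 0.04. ECHS1 and ACSL5 of this list were saturated on 9 and 8 arrays and stood at 0.38 and 0.32 with yellow onion. Both lay above the list median, as did CRAT at 0.31 and ETFB at 0.29, saturated on fewer arrays. The list median with yellow onion thus leans on saturated probes and shows no excess over all genes by itself. CPT1A, which governs the entry of fatty acids into mitochondria, was at 0.33 over the 7 pigs (SE 0.14, limma adjusted p = 0.657) and higher in 6 of 7 pigs. CRAT, the carnitine acetyltransferase, was at 0.30 (SE 0.11, limma adjusted p = 0.630), also above 0 in 6 of 7. ETFB, part of the flavoprotein that takes electrons from the acyl-CoA dehydrogenases, was at 0.23 (SE 0.11) and was saturated on 6 arrays, CRAT on 2. ACSL1, which ties long-chain fatty acids to coenzyme A and is in the study's table, was at -0.12 with pigs on both sides of 0.

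For 4 genes of this list only the study's table gave a probe, so they were described and not tested. ACAA2, the thiolase of the last step of beta-oxidation, was above 0 in 4 of 7 pigs, with ratios of 0.76, -0.08 and 0.81 in pigs 1, 2 and 4. Its ratios in pigs 5, 6, 7 and 8 were 0.55, 0.58, -2.82 and -0.13, so pig 7 was again the lowest. ACADSB, the dehydrogenase of short branched acyl-CoA, had a mean of 0.34 ± 0.40 (SD, n = 7) and was above 0 in 5 of 7 pigs. MLYCD and the carnitine transporter SLC22A5 had means of 0.05 ± 0.58 and 0.24 ± 1.12 (SD, n = 7).

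Near ABCD3, the peroxisomal list had 6 of 22 genes tested and no call. Its median was 0.25 with yellow onion and 0.15 with white onion. CAT, the catalase that removes hydrogen peroxide, was above 0 in 6 of 7 pigs with 0.40 (SE 0.17, limma adjusted p = 0.657) and was saturated on 4 arrays. HSD17B4 of peroxisomal beta-oxidation was at 0.28 (SE 0.12), and PHYH at 0.33 (SE 0.19). The branched-chain amino acid list, to which ACAD8 belongs, had 6 of 19 genes tested, no call, and medians of -0.01 and 0.01. BCKDHB of the complex that commits these amino acids to breakdown was at -0.07 and its subunit gene DLD at 0.11 over the 7 pigs, and MUT, the methylmalonyl-CoA mutase gene, was saturated.

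Of the 16 tested genes of the triglyceride lipolysis list, the list nearest to ABHD5, 3 were called with yellow onion, against 4.63% of all genes. This list also holds genes that make triglyceride or bind fatty acids, among them DGAT2 and FABP4. DGAT2, which makes triglyceride, rose by 0.80 (SE 0.32) and the fatty acid binding protein FABP4 by 0.76 (SE 0.25). Lipoprotein lipase, LPL, fell by 0.88 (SE 0.29), and each of the 3 had a limma adjusted p of 0.387. In pig 2 DGAT2 was at -0.16, FABP4 at 0.002 and LPL at -0.15, so DGAT2 was above 0 in 2 of the 3 pigs. DGAT2 was the only list gene called over the 7 pigs, at 0.72 (SE 0.23, limma adjusted p = 0.630), and it was above 0 in 5 of 7. LIPE, the hormone-sensitive lipase that acts after adipose triglyceride lipase, was above 0 in 7 of 7 pigs, at 0.29 (SE 0.11, limma adjusted p = 0.630), which is under 1.5-fold. PNPLA2, named here as the partner of ABHD5 after its value was seen, was at 0.04 with yellow onion (SE 0.14). FABP3 was at 0.07 over the 7 pigs.

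Markers of other cell types also differed between the segments of a pig. Of the 6 adipocyte markers, which share FABP4, CIDEC and LIPE with this list, PLIN1 was at the floor on 14 arrays, ADIPOQ on 10 and LEP on 1, and FABP4, CIDEC and LIPE on 0. The markers of a list were summed as levels before log2 was taken, so the brightest marker weighs most. The summed level of the adipocyte markers ranged from 18.0 to 50.4 in the Sd segments, from 18.0 to 35.8 with YOd and from 23.2 to 74.2 with WOd. Its log2 ratio was 0.52, 0.00 and 0.20 in pigs 1, 2 and 4 and 0.00, 0.56, 0.43 and 0.11 in pigs 5, 6, 7 and 8, so it was near 0 in pigs 2 and 5. The ratio of LIPE alone was 0.61, 0.03 and 0.24 in pigs 1, 2 and 4 and 0.04, 0.55, 0.46 and 0.12 in pigs 5, 6, 7 and 8. The sum thus ran close to this 1 gene, and CIDEC was below 0 in pigs 1, 2, 4 and 5. FABP4 of this list was below 0 in 4 of 4 pigs given white onion and at -1.69 in pig 7.

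The 5 enteroendocrine markers measured had a summed log2 ratio of 0.96 in pig 1 and 0.69 in pig 4, the pigs in which ABHD5 was highest with yellow onion, and of 0.00 in pig 2. It was 0.31, 0.15, 0.30 and -0.21 in pigs 5, 6, 7 and 8. With yellow onion 2 of the 5 were called, the hormone genes CCK and GHRL, against 4.63% of all genes, and neither passed the limma adjustment. In pigs 1 and 4 CCK was at 1.55 and 1.07 and GHRL at 1.63 and 1.09, while CHGA was at 0.37 and -0.04. The summed leukocyte ratio was 0.45, -0.02 and 0.69 in pigs 1, 2 and 4 and -0.06, -0.61, 0.50 and -0.45 in pigs 5, 6, 7 and 8. The summed level was higher with onion in 1 of 7 pigs for crypt, 3 of 7 for goblet and 2 of 7 for smooth muscle markers. Single markers of a list did not all share the sign of the sum. In pig 4 the crypt markers TOP2A and ASCL2 were at -1.23 and 0.52. In pig 7 the goblet markers SPINK4 and CLCA1 were at -0.21 and 0.70. Of the enterocyte markers measured, only SLC15A1 was not saturated. Its log2 ratio was 0.05, 0.13 and 0.08 in pigs 1, 2 and 4 and 0.52, 0.45, -0.20 and -0.56 in pigs 5, 6, 7 and 8. The part of these marker shifts in the levels of the 5 genes was not tested.

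**Figure D4:**
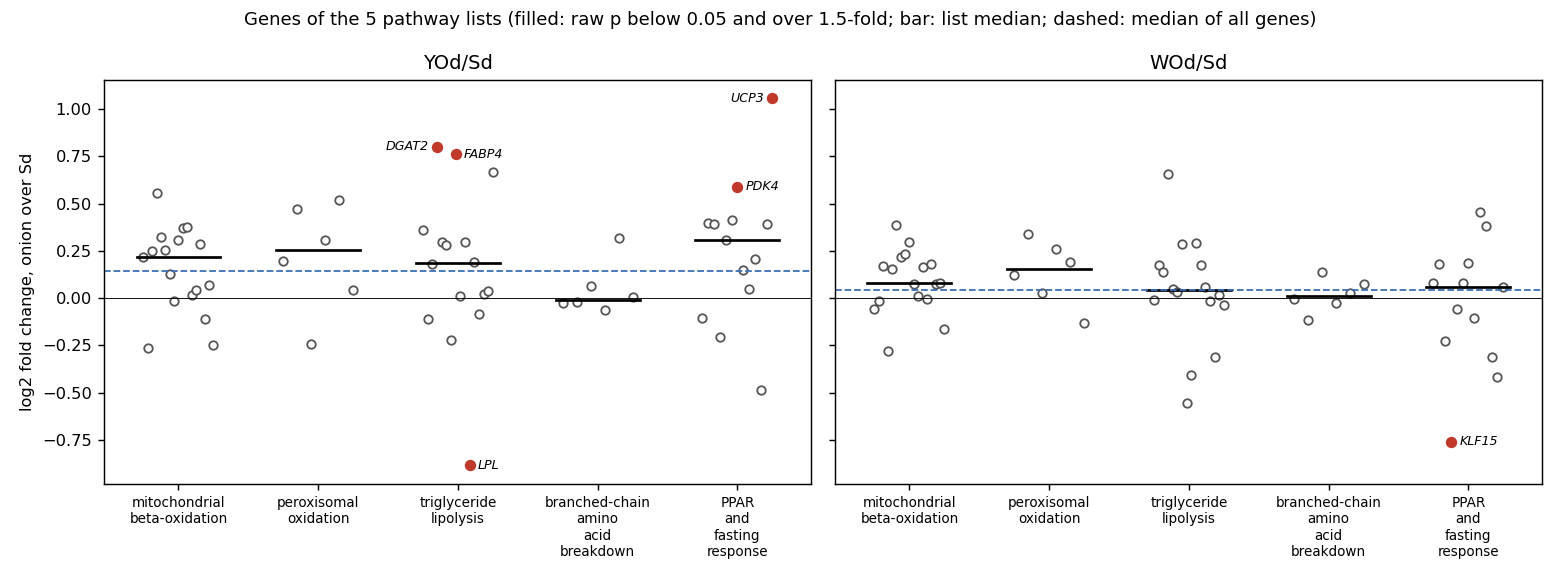
Log2 fold change of onion over Sd (y axis) for each tested gene of the 5 pathway lists (x axis), for YOd in 3 pigs and WOd in 4 pigs; filled points were called, bars are list medians and the dashed line is the median of all genes, 0.14 and 0.04. The beta-oxidation, peroxisomal and branched-chain amino acid lists hold no called gene.

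Among genes of the PPAR and fasting response, 13 of 19 were tested, and 2 of them were called higher with yellow onion, against 3.65% of all genes. They were PDK4, a kinase that holds back glucose oxidation, at 0.59 (SE 0.22), and the mitochondrial carrier UCP3 at 1.06 (SE 0.39), both with a limma adjusted p of 0.387. Each was above 0 in 2 of the 3 pigs given yellow onion, and in pig 2 they stood at -0.01 and -0.15. With white onion the transcription factor KLF15 fell by 0.76 (SE 0.21, limma adjusted p = 0.998), with 4 of 4 pigs below 0. PPARGC1A, a coactivator of mitochondrial genes, was at -0.39 over the 7 pigs (SE 0.13), with 6 of 7 pigs below 0 but under 1.5-fold. PCK1, saturated on 5 arrays, was at 0.22 over the 7 pigs, and ANGPTL4 at 0.00.

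The 5 calls with yellow onion rested on few pigs. All of them were lost without pig 4, and DGAT2, FABP4, PDK4 and UCP3 were also lost without pig 1, though DGAT2 and UCP3 stood at 0.75 and 1.00 there. All 5 were lost as well with quantile normalization, with the authors' log2 values, without the filter on dim genes and without the pig as a block. Their log2 changes were the same without the filter or the block, and with quantile normalization LPL was at -0.87, FABP4 at 0.77, DGAT2 at 0.72, PDK4 at 0.48 and UCP3 at 1.01. Without pig 2, whose arrays lay on 2 slides, 11 of the 58 list genes were called in the 2 remaining pigs, against 13.2% of 2487 genes. Of these 11, 6 passed the limma adjustment, DGAT2, FABP4, LPL, PDK4, PHYH and UCP3, as did 77 of all genes. Without pig 7, the list genes called with white onion were CPT1A, at 0.62, DGAT2, at 0.98, and KLF15, at -0.99, which is 3 of 58 against 3.59% of 2479 genes. The call of DGAT2 over the 7 pigs was lost without pig 4, without pig 6 and without the block, and that of KLF15 without the block.

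A difference between the onions was tested for the list genes, as the effect of yellow minus that of white onion. It was called for 3 of 58 genes, against 3.71% of all genes, 2.36% above and 1.35% below 0. The 3 were ACSL4, which activates long-chain fatty acids, at 0.83 (SE 0.22), FABP4 at 1.31 (SE 0.45) and LPL at -1.06 (SE 0.40), each with a limma adjusted p of 0.844. ACSL4 and FABP4 were above 0 in 3 of 3 pigs with yellow onion and in 0 of 4 with white onion, but FABP4 was near 0 in pig 2, at 0.002, and in pig 8, at -0.05. FABP4 was not well above background on 1 array and so was not in the fit of this difference limited to genes well above background. The calls of ACSL4 and FABP4 were lost without the block and with the mean of a gene's probes, that of FABP4 also without pig 1 or 4, and that of LPL without pig 4, 6 or 7 or without the filter on dim genes. For the 5 genes described here this difference was not tested, and their ratios with the 2 onions overlapped for ABHD5, ACADL, ACADM, ACAD8 and ABCD3.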

How the data were processed

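RNA of mucosal scrapings from 14 jejunum segments of 7 pigs was hybridised by the authors, 1 array per segment, and the scanner files were made with Agilent Feature Extraction 10.7.3.1. The deposited intensity of a spot used here was the processed signal given by that software. The authors also deposited log2 values, floored, for which the submitters' processing notes name RMA, and these served as an alternative.

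From the intensities, outlier spots were left out, replicate spots averaged and each array scaled to its 75th percentile. The 40th percentile of the pooled scaled values served as a floor before log2 was taken. Probes were named by RefSeq accession (6686 of 43603 probes, 3020 genes), with the probe of highest mean standing for a gene. The files give no genome build, so no coordinates are given. Each onion against Sd, both onions together against Sd, and the difference between the onions were fitted with pig as a block in limma 3.58.1 (R 4.3.3), over genes above the floor on at least as many arrays as the smaller group held. The pairing comes from segments of the same pig, and the deviations of its arrays from the group means correlated, with r of 0.45 to 0.76. Pigs are the replicates, and their number limits the precision. Python 3.11.15 was used for the rest.

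The genes named are the members, list genes called in any fit, the 3 list genes with the largest mean ratio, list genes in the study's table and the 3 genes most like each member. Besides these, PNPLA2, cell type markers and some saturated list genes are named. The members and the lists were chosen with earlier results of these data known. Alternatives were other scalings, background corrections, filters, probes and blocks, and each pig left out.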

Additional observations from a re-analysis of the deposited data

Results flagged for a closer look

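In the 34 groups of values examined for a sample far from the others, 3 had one, and about 1 in 20 groups shows one by chance. All 3 were of ACAD8. Its Sd level in pig 5, -2.48, lay far below those of the other 6 pigs, by a gap of 0.67 of the whole range. Its log2 ratio in pig 7, -1.08, lay apart both among the 7 pigs, by 0.83 of the range, and among the 4 pigs given white onion, by 0.84 of the range.

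A difference between the effects of the onions was called for 3 genes of the pathway lists by limma's test of that difference, at an unadjusted p below 0.05 and over 1.5-fold, and none passed the adjustment. The effect of yellow minus that of white onion was 0.83 for ACSL4, 1.31 for FABP4 and -1.06 for LPL, each with a limma adjusted p of 0.844.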

How the results depend on the processing

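Of 213 recomputed means of the 5 genes, 196 moved by less than the SD between pigs, and 12 changed sign, 4 of ACADL, 3 of ACADM and 5 of ACAD8. Leaving out 1 pig cannot move a mean by as much as that SD, and some alternatives left the values of a gene unchanged. The count of 196 is therefore no measure of stability. Without 1 pig, ACADM was at 0.06 with yellow onion (pig 4), 0.07 with white (pig 8) and 0.02 over all pigs (pig 8), ACADL with white onion at -0.08 (pig 6), and ACAD8 at 0.14 with white onion and 0.11 over all pigs (pig 7). Other ACADL probes gave -0.14 and -0.02 with white onion and -0.04 over the 7 pigs. ABHD5 and ABCD3 kept means above 0, of 0.40 to 0.63 and 0.16 to 0.29 over the pigs, and with white onion of 0.09 to 0.50 and 0.0097 to 0.29. The mean of ACADL with yellow onion was 0.16 as the mean of its probes and 0.065, 0.091, 0.16 and 0.18 with other single probes. That of ACAD8 with yellow onion was 0.0090 with the percentile taken over probes above background and 0.016 with the authors' values. Other probes gave ACADM -0.25, -0.26, -0.22, -0.21 and -0.22 with yellow onion, -0.36 and -0.43 with white onion, and -0.31, -0.24 and -0.34 over the 7 pigs. Without the replicate block, calls were 20 with yellow onion, 10 with white, 11 over the 7 pigs and 5 for the difference, against 114, 29, 30 and 91 with it, and list genes called were 0, 0, 0 and 1, against 5, 1, 1 and 3. With the slide as a block they were 329, 91, 80 and 203, and 11, 3, 4 and 6 of the lists. As the pig was a block too, the slide term took up the differences within pigs 2 and 7. That fit therefore comes close to leaving these pigs out and is no separate correction for the slide. Without pigs 2 and 7 together, a setting chosen after seeing the data, calls were 80 over the 5 remaining pigs and 204 for the difference, and 4 and 6 of the lists. With the authors' values calls were 10, 12, 16 and 43, and 0 of the lists with yellow onion. With normexp they were 65 with yellow onion, 12 with white and 59 for the difference, and 2 of the lists with white onion. With no filter they were 20, 17 and 47 for yellow, white and the difference, and 0 of the lists with yellow onion. Quantile normalization gave 63 calls and 0 of the lists with yellow onion. The mean of probes gave 2, 2 and 1 list genes for yellow, white and the difference, genes well above background only gave 2 with white onion, and the percentile over probes above background gave 3 with yellow onion. That percentile also moved the split of higher and lower calls from 90 and 24 to 62 and 32 with yellow onion, from 23 and 7 to 13 and 8 over the 7 pigs, and from 58 and 33 to 39 and 39 for the difference, and the authors' values moved it to 9 and 1 with yellow onion. Normexp turned it from 19 and 10 to 5 and 7 with white onion, and moved it to 12 and 8 over the 7 pigs and to 47 and 12 for the difference. Leaving out 1 pig at a time gave 57 to 329 calls with yellow onion, 44 to 89 with white, 17 to 50 over the 7 pigs and 48 to 168 for the difference, and 0 to 11, 1 to 3, 0 to 2 and 1 to 7 of the lists. The highest count with yellow onion was without pig 2, 329, and the lowest without pig 1, 57. The cause of these shifts was not tested. Of the called list genes, LPL, KLF15, DGAT2, ACSL4, FABP4, PDK4 and UCP3 kept their direction in every alternative run. The 3 or 4 pigs per onion limit the precision.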
